A study of Homo sapiens with 24 samples.

Results

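The response to depletion of KDM5C was compared between 2 human kidney cell lines. ACHN is a renal cancer line and HK-2 is a line of proximal tubular epithelial cells. The comparison asks which genes changed in both lines after KDM5C knockdown and which changed in 1 line or in opposite directions. It used the RNA-seq libraries labelled shNC (control hairpin) and shKDM5C (hairpin against KDM5C) of each line, 3 libraries a group, which are 12 of the 24 libraries of the series. The libraries were chosen by label alone. The other 12 carry a YY1 knockdown and were used for a second contrast at the end and for an alternative fit. All cells were stable lines made with lentiviral hairpin vectors and grown in DMEM with 10% serum. The labels give no clone and do not say which KDM5C hairpin was used. Each group is 1 transduced line, and nothing says that its 3 libraries came from separate transductions. The p-values below therefore measure the spread between these libraries, which may be technical. Line, virus handling and hairpin efficiency cannot be told apart from KDM5C loss itself.

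KDM5C is an X-linked enzyme that removes methyl groups from lysine residues of histone H3 tails at promoters and enhancers. Loss of such a demethylase can raise transcription of some genes, and in other settings KDM5C has been found to keep genes active. It is among the chromatin regulators mutated in clear cell renal carcinoma, and its paralogs KDM5A and KDM5B act on the same mark.

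Between 15926561 and 19363570 read pairs were counted on genes per library. Both lines expressed kidney epithelial markers. PAX8, the renal lineage factor, had 547 ± 8.21 CPM in ACHN shNC and 250 ± 8.40 CPM in HK-2 shNC libraries (counts scaled to library size; mean ± SD, n = 3), and KRT8 had 1420 ± 18.8 and 1800 ± 57.9 CPM. Some but not all markers of a differentiated proximal tubule were near 0 in both lines. LRP2, the megalin receptor, averaged 0.0182 and 0.0181 CPM, and HNF4A 0.0707 and 0.0722 CPM, so HK-2 carried the label of a tubular line without these transcripts. Other listed tubule markers were present, with GGT1 at 71.1 CPM in ACHN shNC and 199 CPM in HK-2 shNC, and MME at 1.18 and 17.0 CPM. CA9, a hypoxia-induced carcinoma marker, was at 0.126 CPM in ACHN shNC, while MET, listed with it, was at 409 CPM. The summed level of 9 leukocyte markers lay between 0.683 and 8.79 CPM and that of 8 endothelial markers between 0.543 and 3.63 CPM over the 12 libraries.

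One library stood apart. HK-2 shKDM5C replicate 1 had 15926561 counts, 22966 detected genes and 11.8% of its counts on mitochondrial genes, against 24694 to 25190 genes and 5.13% to 5.52% in the other HK-2 libraries. Its correlation with the other shKDM5C libraries of HK-2 was 0.935 (log2 CPM), where the other groups had correlations of at least 0.993. Its deviation from the other 2 libraries followed the GC content of the genes (r = -0.699 across 12643 genes, a description). Genes rich in GC read low and genes poor in GC read high. What produced this was not tested. Values are those of all 12 libraries unless "without replicate 1" stands beside them. Of 83 genes named by rule, 56 had a called difference between the lines with all libraries, and all 56 were called in the same direction without it, at 0.713 to 1.24 times the size. For the genes below that were picked as led by 1 line or opposite, the picking itself required both calls. A further 18 differences and 27 HK-2 effects of these 83 genes were called only without it, several of them given below.

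**Figure D1:**
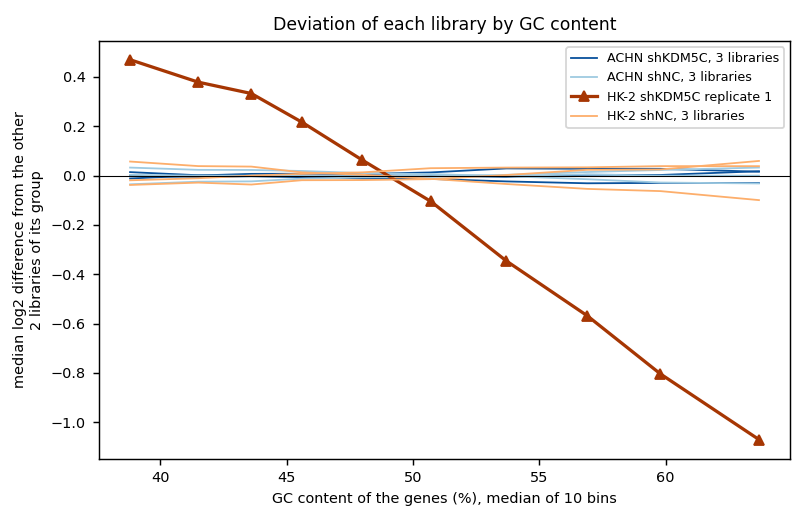
Median log2 difference of each library from the other 2 libraries of its group (y axis) against the GC content of the genes in 10 bins (x axis, %). HK-2 shKDM5C replicate 1 falls from 0.47 in the bin at 38.8% GC to -1.07 in the bin at 63.7%, and the 9 libraries of the other groups stay near 0. HK-2 shKDM5C replicates 2 and 3 are not drawn because replicate 1 is part of their reference.

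KDM5C itself was examined first. It read 71.4, 71.4 and 70.7 CPM in ACHN shNC and 42.2, 44.9 and 42.9 CPM in ACHN shKDM5C libraries, which left 60.9% ± 1.97 of the control mean (SD, n = 3). In HK-2 it read 188, 186 and 193 CPM in shNC and 34.5, 66.6 and 65.8 CPM in shKDM5C libraries, which left 29.4% ± 9.64 (35.0% over replicates 2 and 3). The groups did not overlap in either line. HK-2 controls held more KDM5C than ACHN controls, and the depleted HK-2 libraries 2 and 3 came down to about the level of the ACHN controls. The log2 fold change was -0.73 in ACHN (standard error 0.05, adjusted p = 1.12e-12, edgeR) and -1.74 in HK-2 (0.23, adjusted p = 0.0184), or -1.51 (adjusted p = 1.26e-16) without replicate 1. The knockdown was thus deeper in HK-2, with a difference of 1.02 (adjusted p = 0.0203) or 0.79 without replicate 1 (adjusted p = 4.31e-11). With any of 5 other single libraries left out (ACHN shNC replicates 1, 2 or 3, ACHN shKDM5C replicate 2 or HK-2 shNC replicate 3) its adjusted p was between 0.0524 and 0.0557. Each later difference between the lines carries this unequal depletion, and its part in them was not tested.

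The KDM5C promoter is shown because it holds the only match, among the 21 promoters examined, to the 3 motifs searched (RefSeq, GRCh38.p14, chrX:53225158-53225457, minus strand, 250 bases before to 50 after the start). These were AANATGGC (the core of the YY1 motif), GGCGGGAA (an E2F site) and CACGTG (an E-box), on both strands, and capitals mark the YY1 core.
KDM5C: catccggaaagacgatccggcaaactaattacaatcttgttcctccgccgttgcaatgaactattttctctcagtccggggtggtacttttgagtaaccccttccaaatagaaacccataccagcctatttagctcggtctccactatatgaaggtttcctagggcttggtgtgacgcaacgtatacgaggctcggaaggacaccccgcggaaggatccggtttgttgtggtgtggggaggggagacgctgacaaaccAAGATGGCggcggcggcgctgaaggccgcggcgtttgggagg
Of 35116 promoters in the RefSeq table, 6.58% hold the YY1 core, 3.16% the E2F letters and 7.26% the E-box. The match lies just after this RefSeq start, which is 215 bases downstream of the gene start used for counting. YY1 itself showed no detectable change in ACHN (log2 fold change 0.06, adjusted p = 0.171) or in HK-2 (0.19, adjusted p = 0.484).

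The paralogs were measured because they could carry the same activity. KDM5A read 103 to 109 CPM in ACHN shNC and 113 to 121 CPM in shKDM5C libraries, a small rise (log2 fold change 0.11, adjusted p = 0.0142). KDM5B read 93.2 to 96.1 and 102 to 111 CPM, again a small rise (0.16, adjusted p = 0.00229). In HK-2, KDM5A read 92.2, 86.8 and 87.2 CPM in shNC and 147, 86.0 and 82.8 CPM in shKDM5C libraries, so that its higher mean came from replicate 1. The differences between the lines were -0.16 for KDM5A (adjusted p = 0.742) and -0.12 for KDM5B (adjusted p = 0.803), and turned to 0.19 (adjusted p = 0.0212) and 0.22 (adjusted p = 0.00727) without replicate 1. Of the 6 H3K4 demethylases listed, 4 rose and 2 fell in ACHN, KDM5C among the latter. KDM2B rose by 0.23 (adjusted p = 0.00166), KDM1A rose by 0.30 in ACHN (adjusted p = 4.18e-07) and KDM1B fell by 0.17 (adjusted p = 0.0323).

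**Figure D2:**
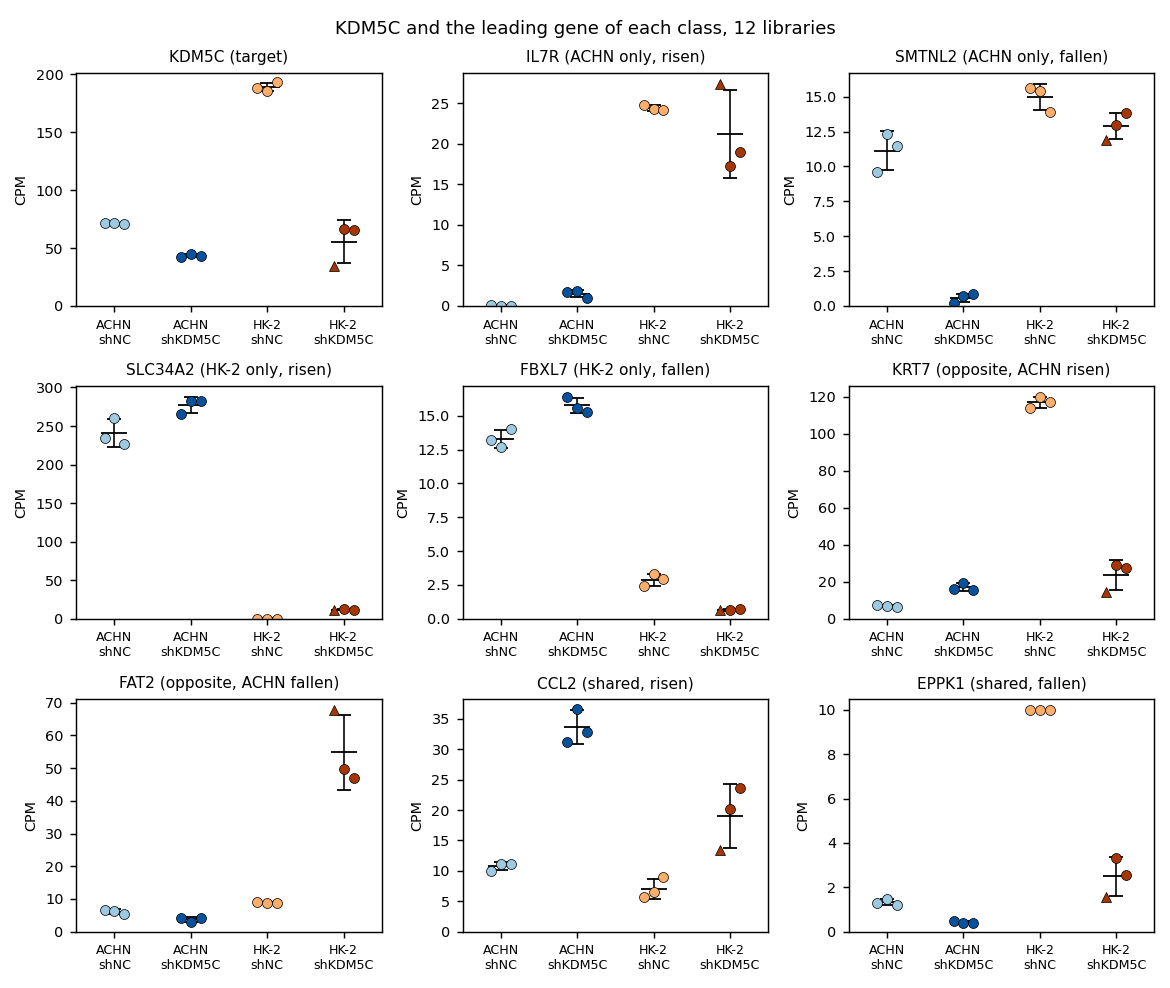
CPM (y axis, linear, from 0) of KDM5C and of the leading gene of each response class in the 12 libraries; each point is a library, bars are mean ± SD (n = 3) and the triangle is HK-2 shKDM5C replicate 1. KDM5C falls in both lines, and KRT7 rises from 6.38 to 7.46 CPM up to 15.7 to 19.6 CPM in ACHN while it falls from at least 114 CPM to at most 29.1 CPM in HK-2.

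With each line fitted alone, many more genes were called in ACHN than in HK-2, where the calls depended on single libraries. In HK-2 they fell to 0 or 1 when any 1 shNC library was left out. With all 24 libraries in 1 fit, 4897 genes were called in ACHN and 3993 in HK-2. The within-line counts below are from the fits of each line alone. In ACHN, 4673 genes (28.9% of 16184 tested) were higher and 4481 (27.7%) lower at an adjusted p under 0.05 (edgeR). In HK-2, 108 (0.668% of 16161) were higher and 106 (0.656%) lower with all libraries, and 1910 (11.5% of 16642) and 1808 (10.9%) without replicate 1. The effect differed between the lines for 2140 of 17948 genes, 1031 (5.74%) with a higher and 1109 (6.18%) with a lower effect in ACHN, and without replicate 1 for 6289 of 18527, 3437 (18.6%) higher and 2852 (15.4%) lower. With an absolute difference of at least 1.5 on the log2 scale 529 and 772 genes remained. Of the differences called with all libraries, 1030 of the 1031 higher and 1102 of the 1109 lower ones were also called in that direction without replicate 1, where they made up 30% and 38.6% of the calls. The lists of genes below are read against these shares.

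Most changes were small. Over the 14825 genes tested in both lines without replicate 1, the median absolute log2 fold change was 0.258 in ACHN and 0.169 in HK-2. Across these genes the 2 sets of fold changes correlated weakly (Pearson 0.137, Spearman 0.111; 0.108 and 0.0588 over 14617 genes with all libraries), as a description, since genes are not independent. The 2 lines shared no library. With all libraries 86 genes were called in both lines in the same direction, 27 risen and 59 fallen, and 49 in opposite directions with a called difference. Without replicate 1 these were 1445 (765 and 680) and 975. All 86 and all 49 were among the larger sets, of which they were 5.95% and 5.03%. The 1445 shared genes were 16.9% of the genes called in ACHN and 41.7% of those called in HK-2. The 975 opposite genes were 11.4% and 28.1%. By comparison, 28.9% of all genes tested in ACHN were higher and 27.7% lower, and 11.5% and 10.9% in HK-2 without replicate 1. The opposite shares were near these backgrounds, as was the 28.5% of HK-2 calls that were opposite with all libraries. The shared shares of 16.9% and 41.7% lay above them.

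**Figure D3:**
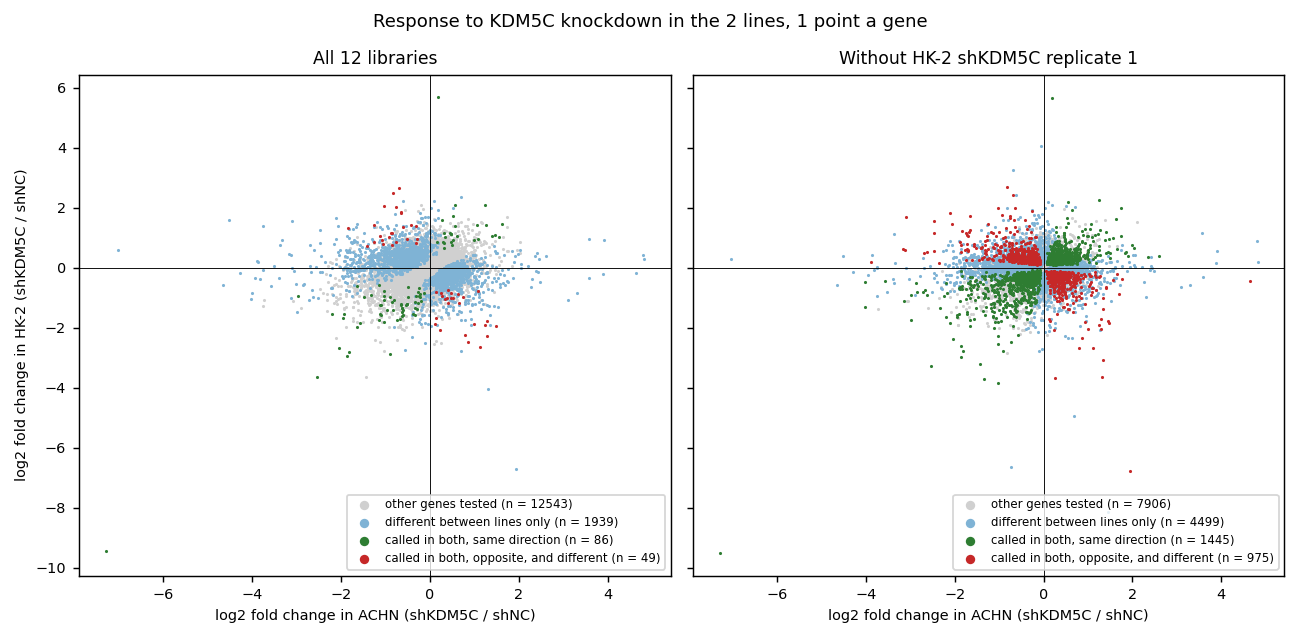
log2 fold change after KDM5C knockdown in ACHN (x axis) and HK-2 (y axis), 1 point a gene, with all 12 libraries (left) and without HK-2 shKDM5C replicate 1 (right). Points called in both lines lie in all 4 quadrants, with 86 shared and 49 opposite genes on the left and 1445 and 975 on the right.

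The largest responses seen mainly in ACHN were taken from genes called there and in the difference, with and without replicate 1, whose HK-2 change stayed under 0.58 (1.5-fold) either way. Of 10899 genes with a symbol and at least 10 CPM in a group, 667 met this rule as risen and 573 as fallen. Among the 4 largest rises, KCNK3, a background potassium channel, read 4.62, 5.42 and 5.23 CPM in ACHN shNC and 31.6, 31.8 and 31.1 CPM in shKDM5C libraries. In HK-2 it read 71.2, 70.0 and 65.5 CPM and 82.0, 85.7 and 96.0 CPM. The ACHN groups were far apart (log2 fold change 2.61, standard error 0.09) while the HK-2 shift was 0.38 (adjusted p = 0.198), or 0.40 without replicate 1 (adjusted p = 4.24e-05), with no overlap of the HK-2 groups. The difference was 2.24 (adjusted p = 1.40e-06).

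SPHK1, the kinase that makes sphingosine phosphate, read 3.05, 4.61 and 3.05 CPM in ACHN shNC and 20.6, 20.1 and 19.6 CPM in shKDM5C libraries. In HK-2 it read 56.3, 51.6 and 58.7 CPM and 15.6, 52.3 and 51.0 CPM, with replicate 1 far below the other libraries. Its difference was 2.95 (adjusted p = 0.00237) and 2.59 without replicate 1 (adjusted p = 3.13e-15). KCNQ3, a voltage-gated potassium channel subunit, rose by 2.45 in ACHN, from 1.10 to 1.73 CPM up to 8.03 to 8.77 CPM (difference 2.18, adjusted p = 8.78e-04, or 2.47 without replicate 1). IL7R, the receptor chain for the cytokine IL-7, had 3 counts in all in ACHN shNC libraries and 83 in shKDM5C libraries, a ratio of 27.3 (95% interval 9.02 to 135, exact, counting error only). Its HK-2 libraries held 17.2 to 27.3 CPM in both groups, and without replicate 1 its HK-2 level fell by 0.43 (adjusted p = 0.00325).

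The largest falls seen mainly in ACHN included extracellular matrix and cytoskeletal genes. NPNT, an integrin ligand of the kidney basement membrane, read 172, 184 and 182 CPM in ACHN shNC and 10.9, 13.8 and 12.2 CPM in shKDM5C libraries. It fell by 3.88 on the log2 scale (standard error 0.06, adjusted p = 4.85e-26). In HK-2 it read 232, 247 and 233 CPM and 266, 271 and 271 CPM, and the difference was -4.09 (adjusted p = 6.67e-09). NPNT thus fell in ACHN to a small part of its level and stayed above its controls in HK-2, where the shift of 0.19 passed the test without replicate 1 (adjusted p = 0.00179). SMTNL2, a smoothelin-like actin-binding protein, went from 9.62 to 12.3 CPM down to 0.217 to 0.824 CPM in ACHN, against 13.9 to 15.6 and 11.9 to 13.8 CPM in HK-2 (difference -4.09, adjusted p = 2.14e-05). ANGPTL2, a secreted angiopoietin-like glycoprotein, went from 4.05 to 4.77 CPM down to 0.163 to 0.340 CPM (difference -3.59, adjusted p = 3.18e-05). LAD1, a basement membrane anchoring protein, had 46 counts in ACHN shNC and 3 in shKDM5C libraries, 15.5 times lower (95% interval 5.00 to 78.2, counting error only), and 50.9 to 73.3 CPM in HK-2 in both groups.

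Responses seen mainly in HK-2, by the mirror rule, were 37 risen and 38 fallen genes. The rule needed an HK-2 call with all libraries, where the median standard error was 0.231 in HK-2 and 0.0829 in ACHN. These counts therefore cannot be set against those of ACHN. Without replicate 1 and at any level, 382 of 14825 genes rose and 322 fell in HK-2 alone. This needed a called difference, no ACHN call and an ACHN change under 0.58. The mirror image in ACHN held 1994 and 1413 genes. The median standard error was still larger in HK-2 here (0.117), and the ACHN counts needed no HK-2 call. These counts cannot be set against each other either. Membrane transporters made up 3 of the 4 largest HK-2 rises by the rule. SLC34A2, a sodium phosphate cotransporter, read 0.379, 0 and 0.307 CPM in HK-2 shNC and 11.8, 12.3 and 11.7 CPM in shKDM5C libraries. In ACHN it was abundant in both groups, at 234, 261 and 227 CPM and 265, 283 and 283 CPM. The HK-2 groups were wide apart (log2 fold change 5.68, standard error 0.53, adjusted p = 0.00762) and the difference was -5.48 (adjusted p = 4.22e-06), although ACHN also moved by 0.19 (adjusted p = 3.91e-04).

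SLC17A3, an organic anion transporter of the renal tubule, read 8.07, 11.1 and 11.4 CPM in HK-2 shNC and 34.7, 43.0 and 42.5 CPM in shKDM5C libraries (difference -1.48, adjusted p = 0.00815). SLC37A1, a sugar phosphate exchanger, read 4.06, 3.55 and 3.58 CPM and 13.4, 19.6 and 14.4 CPM (difference -1.54, adjusted p = 0.00125). SLC37A1 also rose in ACHN, by 0.56 from 5.45 to 6.88 CPM up to 8.96 to 10.0 CPM (adjusted p = 3.85e-04). DHRS3, a retinaldehyde reductase, read 5.04, 3.38 and 4.81 CPM and 16.3, 19.2 and 15.6 CPM (difference -1.93, adjusted p = 9.70e-05). In these 3 genes the 3 HK-2 knockdown libraries, replicate 1 included, all lay above the 3 controls. DHRS3 in ACHN stayed between 38.9 and 44.9 CPM in both groups.

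Among the falls, ITGB2, the common beta chain of leukocyte integrins, read 10.3, 10.4 and 11.2 CPM in HK-2 shNC and 1.98, 3.96 and 2.52 CPM in shKDM5C libraries, with 76.3 to 88.9 CPM in ACHN (difference 1.99, adjusted p = 1.90e-04). AREG, the EGF receptor ligand amphiregulin, read 41.7, 46.7 and 40.5 CPM and 7.32, 13.3 and 14.2 CPM (difference 1.66, adjusted p = 0.00541). FBXL7, a ubiquitin ligase subunit, read 2.44, 3.33 and 2.91 CPM and 0.659, 0.616 and 0.750 CPM (difference 2.30, adjusted p = 7.44e-05). LYNX1, a membrane-anchored modulator of nicotinic receptors, read 11.1, 11.3 and 12 CPM and 1.91, 3.34 and 3.75 CPM (difference 2.06, adjusted p = 5.16e-04). For ITGB2, AREG and LYNX1 the lowest value was that of replicate 1, and the fall held without it (log2 fold changes of -1.71, -1.64 and -1.69). FBXL7 and ITGB2 also rose in ACHN, by 0.23 and 0.11 (adjusted p = 0.0268 and 0.0357, edgeR). They met the rule for opposite directions as well, so the classes overlap.

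Genes that moved in opposite directions were 24 with a rise in ACHN and 20 with a rise in HK-2 under the same rule of levels. KRT7, a keratin of simple epithelia, read 7.46, 7.05 and 6.38 CPM in ACHN shNC and 16.3, 19.6 and 15.7 CPM in shKDM5C libraries. In HK-2 it read 114, 120 and 117 CPM and 14.6, 29.1 and 27.3 CPM. It rose by 1.29 in ACHN (adjusted p = 1.76e-10) and fell by 2.28 in HK-2 (adjusted p = 0.00979), with the largest difference of the class, 3.57 (standard error 0.28, adjusted p = 1.39e-05). Antisense and neighbouring genes share 10.9% of its exon bases, and counting ignored strand.

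DKK1, a secreted WNT antagonist, read 7.46, 7.75 and 7.91 CPM in ACHN shNC and 21.4, 23.9 and 20.1 CPM in shKDM5C libraries, but 27.6, 30.3 and 29.0 CPM and 6.06, 6.78 and 9.59 CPM in HK-2 (difference 3.42, adjusted p = 2.13e-06). GJA1, the most widely expressed connexin of gap junctions, read 54.0, 57.6 and 55.1 CPM and 101, 104 and 101 CPM in ACHN, but 28.9, 30.2 and 31.3 CPM and 3.95, 5.81 and 6 CPM in HK-2 (difference 3.36, adjusted p = 7.14e-07). The non-coding RNA LINC03061 had a difference of 3.18 (adjusted p = 2.13e-06). For both coding genes the shNC and shKDM5C libraries did not overlap in either line, and leaving out replicate 1 changed the difference by little (3.31 and 3.22).

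The reverse pattern held for FAT2, COL14A1, ST3GAL5 and the non-coding LINC02977. FAT2, an atypical cadherin, read 6.73, 6.34 and 5.29 CPM in ACHN shNC and 4.29, 2.89 and 4.29 CPM in shKDM5C libraries, but 9.21, 8.73 and 8.74 CPM and 67.9, 49.6 and 46.9 CPM in HK-2 (difference -3.34, adjusted p = 2.11e-05). COL14A1, a fibril-associated collagen, read 11.8, 11.5 and 9 CPM and 3.37, 2.66 and 3.08 CPM in ACHN, but 145, 141 and 160 CPM and 391, 338 and 360 CPM in HK-2 (difference -3.15, adjusted p = 1.40e-06). ST3GAL5, the sialyltransferase that starts ganglioside synthesis, fell by 1.25 in ACHN (adjusted p = 1.25e-06) and rose by 1.44 in HK-2 (adjusted p = 0.00762), a difference of -2.68 (adjusted p = 9.50e-06). LINC02977 had a difference of -2.75 (adjusted p = 6.72e-04). FAT2 was high in each HK-2 knockdown library, and replicate 1 held its highest value.

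The promoters of GJA1, DKK1 and ST3GAL5 are shown because these genes moved in opposite directions in the 2 lines and their RefSeq starts lie within 50 bases of the gene start in the count tables. The sequences are from GRCh38.p14, at chr6:121435396-121435695 (plus strand), chr10:52314031-52314330 (plus strand) and chr2:85888941-85889240 (minus strand).
GJA1: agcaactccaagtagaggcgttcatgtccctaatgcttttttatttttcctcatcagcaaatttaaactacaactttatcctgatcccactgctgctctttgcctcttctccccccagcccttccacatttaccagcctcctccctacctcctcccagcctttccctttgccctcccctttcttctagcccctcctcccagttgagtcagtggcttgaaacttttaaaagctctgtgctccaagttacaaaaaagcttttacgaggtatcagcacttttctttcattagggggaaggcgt
DKK1: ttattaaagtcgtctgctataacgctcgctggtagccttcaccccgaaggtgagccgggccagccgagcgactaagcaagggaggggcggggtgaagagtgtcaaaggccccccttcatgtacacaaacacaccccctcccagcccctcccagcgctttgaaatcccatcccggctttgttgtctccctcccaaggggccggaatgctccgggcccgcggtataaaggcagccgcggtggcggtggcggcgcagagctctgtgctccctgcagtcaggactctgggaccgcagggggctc
ST3GAL5: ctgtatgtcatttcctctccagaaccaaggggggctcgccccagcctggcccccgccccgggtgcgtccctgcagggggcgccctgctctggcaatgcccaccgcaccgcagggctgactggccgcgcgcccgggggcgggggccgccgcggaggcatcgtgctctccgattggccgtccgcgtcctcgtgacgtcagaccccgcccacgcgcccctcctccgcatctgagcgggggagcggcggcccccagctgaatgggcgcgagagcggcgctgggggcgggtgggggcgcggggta
They held 3, 20 and 36 CpG dinucleotides, against a median of 14 over all 35116 promoters, and none of the 3 motifs searched. The 20 promoters found for the named genes of all classes held from 0 (IL7R) to 39 (KCNK3).

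Shared responses were 26 risen and 47 fallen genes by the rule. CCL2, a monocyte chemokine, read 9.99, 11.2 and 11.2 CPM in ACHN shNC and 31.2, 36.7 and 32.9 CPM in shKDM5C libraries, and 5.69, 6.49 and 8.95 CPM and 13.4, 20.1 and 23.7 CPM in HK-2. BIRC3, an apoptosis inhibitor induced by NF-kB, read 16.8, 19.2 and 14.5 CPM and 40.3, 41.1 and 42.1 CPM in ACHN, and 30.2, 32.5 and 33.6 CPM and 101, 73.9 and 79.8 CPM in HK-2. Both rose in each line with no overlap of the groups, by 1.62 and 1.46 for CCL2 and by 1.27 and 1.44 for BIRC3, and their differences of 0.17 and -0.15 did not pass the test (adjusted p = 0.736 and 0.653).

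C3, the central complement component, read 68.4, 70.5 and 54.5 CPM in ACHN shNC and 149, 158 and 158 CPM in shKDM5C libraries, and 183, 186 and 198 CPM and 530, 918 and 911 CPM in HK-2. It rose more in HK-2 (2.08 against 1.25), a difference of -0.82 (adjusted p = 0.0398) that was -1.02 without replicate 1 (adjusted p = 5.55e-12) and missed the threshold when most other single libraries were left out. ANKRD1, a stretch-responsive YAP target, rose by 1.46 in ACHN and 1.10 in HK-2 (adjusted p = 4.35e-17 and 0.0277). Its difference was 0.38 (adjusted p = 0.141), or 0.52 without replicate 1 (adjusted p = 1.71e-04).

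Of the shared falls, EPPK1, an epithelial plakin, fell by 1.65 and 1.97, KCNIP1, a potassium channel-interacting protein, by 1.11 and 1.23, and LIMS2, a focal adhesion adaptor, by 1.11 and 1.24 (ACHN and HK-2, log2 scale). EPPK1 was low in ACHN, with 22 to 27 counts in shNC and 7 to 9 counts in shKDM5C libraries. KCNIP1 read 189, 188 and 191 CPM in ACHN shNC and 94.1, 80.8 and 90.5 CPM in shKDM5C libraries. The antisense RNA ZFHX4-AS1 fell by 1.10 and 1.57. Their differences were between 0.12 and 0.49 with adjusted p from 0.191 to 0.656. Without replicate 1 that of ZFHX4-AS1 was 0.70 and passed (adjusted p = 0.00313), and the other 3 did not (adjusted p from 0.278 to 0.893). A size of effect that did not differ detectably is not shown to be equal, since the standard errors of these differences reached 0.40.

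Genes of cell division responded differently in the 2 lines. Of 38 G2/M phase genes, 37 rose and 1 fell in ACHN, with a median log2 fold change of 0.48 against -0.01 over all genes tested. None was called in HK-2 with all libraries (edgeR), where the median was 0.20 and 26 of 38 lay above 0. Without replicate 1, 3 rose and 4 fell with a median of 0.03. The effect was larger in ACHN for 15 of 38 (background 5.74%) and smaller for 0 with all libraries, and larger for 34 and smaller for 1 without replicate 1 (background 18.6%). The 1 gene that fell in ACHN was ECT2, a guanine exchange factor of cytokinesis, at -0.41. All rises were below 1 on the log2 scale.

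CDC25B, a phosphatase that activates mitotic CDK, read 70.6, 72.3 and 69.3 CPM in ACHN shNC and 123, 119 and 116 CPM in shKDM5C libraries. In HK-2 it read 296, 277 and 301 CPM and 239, 287 and 298 CPM, where only replicate 1 lay below the controls. The difference was 0.81 (adjusted p = 7.95e-04) and 0.74 without replicate 1. CCNB1, the mitotic cyclin B, read 121 to 130 CPM and 186 to 194 CPM in ACHN, with 200 to 210 and 194 to 215 CPM in HK-2 (difference 0.60, adjusted p = 0.00368). BIRC5, the survivin of the chromosomal passenger complex, rose by 0.52 in ACHN and was at -0.14 in HK-2 (difference 0.67, adjusted p = 0.00162). MYBL2, a transcription factor of late cell cycle genes, rose by 0.41 in ACHN and was at -0.25 in HK-2, where the fall of 0.24 passed the test without replicate 1 (difference 0.67, adjusted p = 8.11e-04). Of 36 S phase genes, 10 rose and 9 fell in ACHN, a share near the background.

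**Figure D4:**
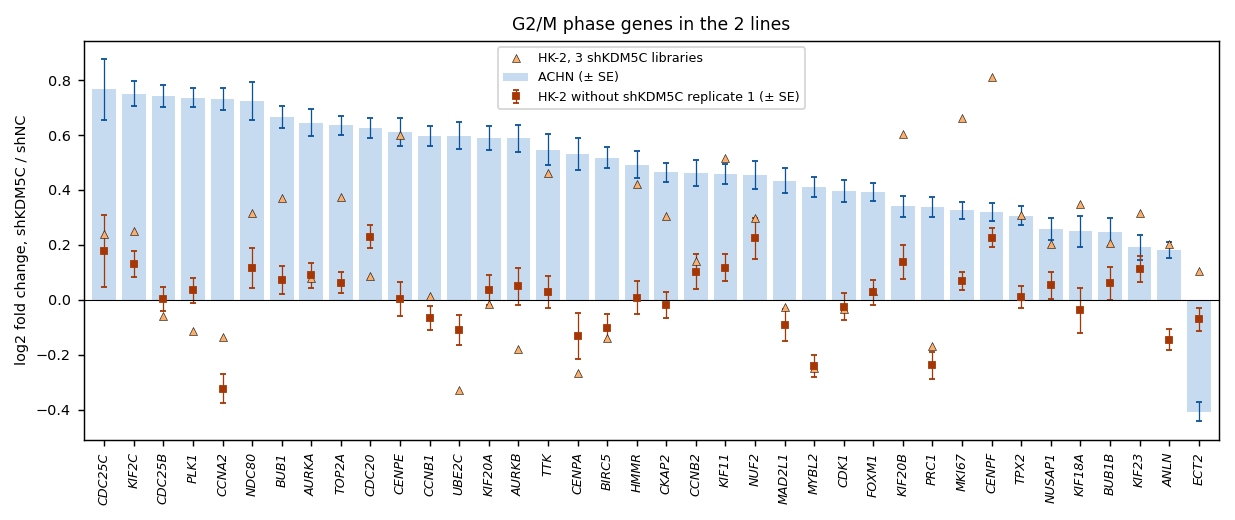
log2 fold change after KDM5C knockdown (y axis) of 38 G2/M phase genes (x axis), in ACHN (bars ± SE), in HK-2 with all libraries (triangles) and in HK-2 without shKDM5C replicate 1 (squares ± SE). The ACHN bars lie above 0 for all genes but ECT2, and the HK-2 squares scatter around a median of 0.03.

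Targets of p53 rose in the same line. Of 22 such genes, 16 rose and 3 fell in ACHN (median 0.41). In HK-2 none was called with all libraries (median -0.16), and 2 rose and 6 fell without replicate 1. The effect was larger in ACHN for 9 and smaller for 0 of 22 with all libraries, and larger for 13 and smaller for 1 without replicate 1. CDKN1A, the cell cycle inhibitor p21, read 134, 142 and 132 CPM in ACHN shNC and 227, 230 and 223 CPM in shKDM5C libraries, and 48.9, 46.4 and 51.8 CPM and 14.8, 34.6 and 33.7 CPM in HK-2. It thus rose by 0.72 in ACHN and lay below its controls in each HK-2 knockdown library (-0.80, adjusted p = 0.26; -0.52 without replicate 1, adjusted p = 1.36e-05), a difference of 1.53 (adjusted p = 0.00683).

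AEN, an apoptosis-enhancing nuclease, read 56.2, 54.3 and 47.4 CPM and 91.0, 89.4 and 87.0 CPM in ACHN (difference 1.10, adjusted p = 0.00841). BTG2, an antiproliferative factor, had a difference of 1.04 (adjusted p = 0.00731), and FDXR, a mitochondrial ferredoxin reductase, of 1.00 (adjusted p = 0.00429). In ACHN, G2/M phase genes and the inhibitor CDKN1A were both higher in the knockdown libraries. Of 32 genes of the apoptosis machinery tested in ACHN, 16 rose and 6 fell, and of 33 in HK-2 without replicate 1, 8 rose and 3 fell.

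Keratins, the intermediate filaments of epithelia, responded differently in the 2 lines. Of 9 keratins tested, 4 rose and 2 fell in ACHN (median 0.29), while 0 rose and 2 fell in HK-2 with all libraries, and 0 rose and 4 fell without replicate 1 (median -0.76). The effect was larger in ACHN for 5 of 9 and smaller for 0, with and without replicate 1. KRT19 read 725, 710 and 696 CPM in ACHN shNC and 882, 927 and 876 CPM in shKDM5C libraries, and 43.4, 44.2 and 41.6 CPM and 15.1, 26.6 and 24.2 CPM in HK-2 (difference 1.27, adjusted p = 0.00165). KRT80 stayed between 413 and 429 CPM in ACHN and fell in HK-2 from 211 to 216 CPM down to 96.4 to 127 CPM (difference 0.89, adjusted p = 5.07e-04). KRT8 rose by 0.47 in ACHN (difference 0.53, adjusted p = 0.009). With KRT7, these keratins were lower relative to their controls in HK-2 than in ACHN. E-cadherin (CDH1), an epithelial adhesion molecule picked after its values were seen, went the other way. It read 49.9, 49.1 and 45.6 CPM in ACHN shNC and 4.78, 5.26 and 7.03 CPM in shKDM5C libraries, and 1.08, 1.96 and 0.869 CPM and 2.83, 3.90 and 4.55 CPM in HK-2 (difference -4.65, adjusted p = 1.05e-05). Other epithelial adhesion genes did not all go 1 way. EPCAM and OCLN, also picked after their values were seen, went with the keratins. The mean of EPCAM went from 22.2 to 22.1 CPM in ACHN and from 64.5 to 32.3 CPM in HK-2. That of OCLN went from 14.9 to 21.6 CPM and from 2.46 to 0.954 CPM. The cadherin CDH16 did not go with them. Its mean went from 24.8 to 10.1 CPM in ACHN and from 77.4 ± 4.70 to 90.7 ± 31.7 CPM in HK-2 (SD, n = 3). Of 22 epithelial-mesenchymal genes tested, the difference was higher for 3 and lower for 3 (median 0.07).

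Genes of the EGF receptor and MET axis were next. The list of 19 genes had 4 risen and 3 fallen of 15 tested in ACHN, shares not above the background of 28.9% and 27.7%. In HK-2, 0 rose and 1 fell with all libraries, and 0 and 7 of 15 without replicate 1 (background 11.5% and 10.9%). The difference was higher for 5 and lower for 1 of 16 (background 5.74% and 6.18%). HBEGF, a membrane-anchored ligand, read 11.5, 11.5 and 12.4 CPM in ACHN shNC and 25.8, 26.8 and 24.5 CPM in shKDM5C libraries, and 28.9, 26.6 and 29.6 CPM and 10.6, 17.5 and 17.8 CPM in HK-2 (difference 1.98, adjusted p = 1.64e-04), and the HK-2 fall of 0.69 passed without replicate 1 (adjusted p = 1.19e-05). ERBB3, a kinase-impaired receptor of the family, read 26.1 to 27.2 and 31.2 to 34.3 CPM in ACHN and 6.55 to 7.36 and 2.09 to 3.43 CPM in HK-2 (difference 1.64, adjusted p = 4.99e-04). NRG1, the neuregulin ligand, was at -0.05 in ACHN and -0.59 in HK-2 (difference 0.56, adjusted p = 0.0159). Together with AREG, 3 ligand genes had lower effects in HK-2 than in ACHN.

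Kidney developmental factors differed most through PAX2 and SALL1. PAX2, the paired box factor of nephric lineage, read 27.3, 28.3 and 29.2 CPM in ACHN shNC and 9.17, 9.34 and 8.90 CPM in shKDM5C libraries, and 9.53, 7.86 and 11.4 CPM and 14.6, 27.7 and 35.4 CPM in HK-2. It fell by 1.65 in ACHN (adjusted p = 4.79e-15) and lay above its controls in all HK-2 knockdown libraries (1.46, adjusted p = 0.0855; 1.72 without replicate 1, adjusted p = 5.09e-10), a difference of -3.10 (adjusted p = 1.70e-04). SALL1, a zinc finger factor of nephron progenitors, rose in HK-2 from 74.2, 80.4 and 84.2 CPM to 165, 179 and 179 CPM and stayed at 9.51 to 11.6 CPM in ACHN (difference -1.16, adjusted p = 2.50e-04). Of 16 such factors tested in ACHN, 1 rose and 7 fell, and of 15 in HK-2, 1 rose and 0 fell with all libraries, and 4 rose and 2 fell without replicate 1.

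Of 14 proximal tubule transport genes tested in ACHN, 3 rose and 8 fell (median -0.64), and of 12 in HK-2, 2 rose and 0 fell, or 4 and 1 without replicate 1. Beside SLC34A2, DPP4, a brush border peptidase, fell in ACHN from 101, 96.7 and 98.0 CPM to 63.1, 67.9 and 68.1 CPM and read 151, 146 and 150 CPM and 280, 227 and 222 CPM in HK-2 (difference -1.31, adjusted p = 1.57e-04). ALPL, the tissue-nonspecific alkaline phosphatase, fell by 0.83 in ACHN and rose by 2.51 in HK-2 from a low level of 0.382 to 0.433 CPM (difference -3.33, adjusted p = 3.52e-04). The difference was lower in ACHN for 3 of 14 and higher for 0 with all libraries (background 6.18% and 5.74%), and for 7 and 1 without replicate 1.

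More matrix genes fell than rose in both lines. Of 31 collagen and laminin genes tested in ACHN, 8 rose and 20 fell, and of 29 in HK-2, 1 rose and 3 fell, or 8 and 15 without replicate 1. COL1A1, the chain of fibrillar collagen I, read 597, 607 and 558 CPM in ACHN shNC and 48.4, 53.2 and 48.4 CPM in shKDM5C libraries, and 28.9, 30.5 and 32.3 CPM and 14.4, 22.9 and 22.1 CPM in HK-2. Its fall of 3.57 in ACHN (standard error 0.04) went with a difference of -2.97 (adjusted p = 2.13e-06). COL1A1 is also a fibroblast marker, and the summed level of 9 fibroblast markers was 924 to 1011 CPM in ACHN shNC and 474 to 528 CPM in shKDM5C libraries, while COL1A2, COL3A1 and POSTN were at or near 0. COL1A1 itself made up the fall of that sum, and THY1, the next most abundant marker, went from 348 to 422 CPM. In HK-2 the COL1A1 fall passed without replicate 1 (-0.44, adjusted p = 9.39e-04). COL8A1 fell in both lines and more in HK-2, by 0.29 in ACHN and by 1.36 in HK-2, from 95.5 to 105 CPM down to 37.0 to 39.7 CPM (difference 1.08, adjusted p = 9.66e-05). COL5A1 fell by 0.43 in ACHN and rose by 1.41 in HK-2 (difference -1.83, adjusted p = 1.59e-04).

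Genes of antigen presentation and NF-kB feedback rose in ACHN, and in HK-2 once replicate 1 was left out. Of 18 genes of MHC class I presentation, 15 rose and 1 fell in ACHN (median 0.33). None was called in HK-2 with all libraries, and 11 rose and 1 fell without replicate 1 (median 0.21). The effect was larger in ACHN for 1 and smaller for 1 of 18 with all libraries, and larger for 8 and smaller for 2 without replicate 1 (background 18.6% and 15.4%). Of 17 NF-kB feedback genes, 11 rose and 2 fell of 16 tested in ACHN, 2 rose and 0 fell in HK-2, and 10 rose and 0 fell without replicate 1, with medians of 0.30 in ACHN and 0.29 in HK-2 without that library. PSMB10, an immunoproteasome subunit, rose by 0.72 in ACHN and by 0.66 in HK-2 without replicate 1, and B2M, the light chain of class I molecules, by 0.29 and 0.36. HLA-E had a difference of 0.54 (adjusted p = 0.012) and ERAP2, a peptide-trimming protease, of -0.55 (adjusted p = 0.0409). HLA genes are close paralogs, and reads may be split among them.

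Some inflammatory genes departed from this. ICAM1, an adhesion molecule induced by NF-kB, rose by 1.89 in ACHN from 0.982 to 1.41 CPM up to 4.18 to 4.47 CPM, against 0.21 in HK-2 (adjusted p = 0.595; 0.40 without replicate 1, adjusted p = 2.49e-06; difference 1.69, adjusted p = 0.00341), with 23.6% of its exon bases shared with other genes. IL6 read 13.5, 13.6 and 14.3 CPM in ACHN shNC and 35.5, 36.3 and 33.7 CPM in shKDM5C libraries, but 9.26, 8.35 and 8.79 CPM and 1.71, 3.13 and 5.73 CPM in HK-2 (difference 2.62, adjusted p = 8.38e-04), where the fall of 0.99 passed without replicate 1 (adjusted p = 6.63e-04). CXCL8, a neutrophil chemokine, rose by 0.46 in ACHN and read 73.4 to 92.0 and 47.1 to 55.5 CPM in HK-2 (difference 1.17, adjusted p = 0.00268). Of 13 cytokine and chemokine genes tested in ACHN, 7 rose and 3 fell, and of 15 in HK-2, 1 rose and 0 fell, or 6 and 6 without replicate 1. Of 33 interferon-stimulated genes in ACHN 14 rose and 6 fell, and of 34 in HK-2 without replicate 1, 8 rose and 1 fell.

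Cholesterol synthesis genes were lower in both lines. Of 24, 2 rose and 20 fell in ACHN (median -0.20). In HK-2 none was called with all libraries (median -0.24), and 3 rose and 13 fell without replicate 1 (median -0.17). The falls were small, and LSS, which closes the sterol ring, was at -0.58 in ACHN and -0.26 in HK-2 without replicate 1. HMGCS1, an early enzyme of the pathway, fell by 0.09 in ACHN and read 172 to 181 CPM and 118 CPM in each knockdown library of HK-2 (difference 0.46, adjusted p = 0.00812). FDFT1, the squalene synthase, had a difference of 0.38 (adjusted p = 0.0208). STARD4, a sterol carrier, fell by 0.43 in ACHN but read 124 to 158 CPM against 84.7 to 97.4 CPM in HK-2 (difference -1.03, adjusted p = 0.00127).

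**Figure D5:**
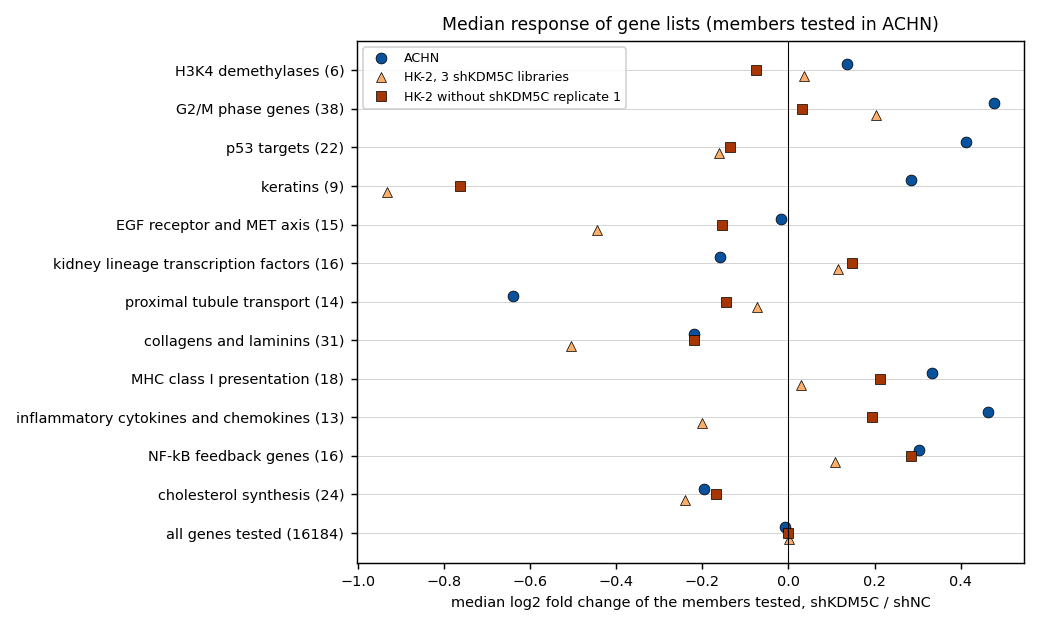
Median log2 fold change (x axis) of the tested members of 12 gene lists and of all genes tested (y axis, members tested in ACHN in parentheses), in ACHN (circles), in HK-2 with all libraries (triangles) and without shKDM5C replicate 1 (squares). G2/M phase genes and p53 targets stand at 0.48 and 0.41 in ACHN and at 0.03 and -0.14 in the HK-2 squares, and cholesterol synthesis genes lie below 0 in both lines.

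The study's text names 6 genes for lower expression in ACHN cells with both knockdowns, whose libraries are not part of this comparison. The values below are for the KDM5C hairpin alone, which is another question. The genes were taken as given, and since the study picked them from this series their values are no independent evidence. In ACHN, JAM3 (a junctional adhesion molecule), KNTC1 (a kinetochore checkpoint protein), SMC2 (a condensin subunit) and LMNB1 (a nuclear lamin) fell by 0.45, 0.31, 0.11 and 0.26, SMC4 (the partner of SMC2) was at -0.05 (adjusted p = 0.243) and FOXM1 (a mitotic transcription factor) rose by 0.39. In HK-2 with all libraries none of the 6 was called by edgeR. Among the differences FOXM1 passed (0.37, adjusted p = 0.0182), though not with the GC and length trend removed (0.25, adjusted p = 0.125), and JAM3 had -0.40 (adjusted p = 0.0839). Without replicate 1, JAM3, KNTC1, SMC2 and LMNB1 also passed (-0.35, -0.27, -0.24 and -0.32) and SMC4 did not (-0.13, adjusted p = 0.0704). SMC2 read 165 to 169 CPM in HK-2 shNC and 370, 179 and 187 CPM in shKDM5C libraries. SMC4 and FOXM1 share 25.6% and 15.9% of their exon bases with other genes.

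The same contrast could be drawn in other libraries, in cells that carried a YY1 knockdown with or without the KDM5C hairpin (labels Dsh and shYY1, 3 libraries a group, none of them used above). KDM5C read 89.7 to 94.6 and 40.0 to 41.0 CPM in ACHN and 231 to 258 and 64.8 to 71.1 CPM in HK-2. Of the 2140 genes that differed between the lines without YY1 knockdown, 2127 were tested, and 64.5% had the same sign here, against 55.6% of all genes tested in both. Of them, 939 were called with the same sign and 422 with the opposite sign. Among the 24 genes named above for differing between the lines, 14 were called with the same sign, 5 with the opposite sign and 5 were not called.

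Of the named genes, SLC34A2 (-2.52), FBXL7 (2.10), DHRS3 (-2.14), ANGPTL2 (-4.45) and NPNT (-1.44) kept the sign of their difference in YY1-depleted cells. PAX2 had a difference of -3.39 there. SPHK1 (-1.83), KCNK3 (-0.74), DKK1 (-1.10), LINC03061 (-8.19) and SLC17A3 (5.53) took the opposite sign. KRT7 was at -0.10 (adjusted p = 0.473). G2/M phase genes went the other way, with 1 of 38 higher and 32 lower in ACHN relative to HK-2 (median -0.47). Over all 17953 genes tested in YY1-depleted cells, 21.8% were higher and 24.1% lower. A kept sign did not always mean the same response within the lines. In YY1-depleted cells SLC34A2 fell by 1.49 in ACHN and was not tested in HK-2 alone. ANGPTL2 fell by 2.44 in ACHN and rose by 2.01 in HK-2. For FBXL7, DHRS3 and NPNT the line that led before again had the larger effect. Cells with both hairpins went through separate selection, and what moved these genes was not tested.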

How the data were processed

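Per the file headers and the submitters' processing notes, HISAT2 2.0.5 alignments of paired-end reads were summarised by the authors to genes with featureCounts (v2.0.1 in the headers, 1.5.0-p3 in the notes) without strand on Ensembl GRCh38 release 84. The deposited values are raw counts for 60675 genes, 1 table a library. Here edgeR 4.0.16 in R 4.3.3 was used (TMM scaling, its filter on low counts, quasi-likelihood F test, Benjamini-Hochberg adjustment over all genes tested, threshold 0.05). The difference was the contrast of both knockdown effects over 12 libraries, and each line was also fitted alone with 6. Standard errors came from the F statistic. CPM used TMM over the 12 libraries. Exact permutation in groups of 3 cannot go below 0.1. Libraries with the same replicate number did not deviate together, which cannot show that they were unpaired. The main fits used no pairing. Alternatives were DESeq2 1.42.0, RLE or total counts, 2 other filters, all 24 libraries, limma 3.58.1 voom with sample weights, a replicate block, each library left out and, added after the data were seen, a GC and length trend removed. On simulated counts of 17606 genes, 93% of 4-fold and 54% of 2-fold differences were called, and 6.96% of calls were unchanged genes. The changes were placed only in ACHN shKDM5C libraries and in genes with higher counts, and noise was drawn separately for each gene. These rates therefore do not cover low-count genes or a GC trend shared across genes. Genes were named by a rule. It took KDM5C, its paralogs, YY1, the 6 study genes and up to 4 genes a class with at least 10 CPM. It also took up to 4 genes a gene list by adjusted p of the difference. B2M, PSMB10, LSS, ECT2, CDH1, CDH16, EPCAM and OCLN were added after their values were seen. Not all genes that these rules name are reported here. The comparison, its 44 gene lists and these rules were chosen with earlier results of these data known.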

Additional observations from a re-analysis of the deposited data

Results flagged for a closer look

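The difference of the knockdown effect between ACHN and HK-2 was tested directly, and 2140 genes passed with all 12 libraries. Values below are differences on the log2 scale (ACHN minus HK-2, edgeR, adjusted p under 0.05) of the named genes, and each was flagged because the 2 lines' effects differed by that test.

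For genes that moved mainly in ACHN the differences were 4.82 (IL7R), 2.24 (KCNK3), 2.95 (SPHK1), 2.18 (KCNQ3), -4.09 (SMTNL2), -3.59 (ANGPTL2), -4.09 (NPNT) and -3.67 (LAD1). For genes that moved mainly in HK-2 they were -5.48 (SLC34A2), -1.54 (SLC37A1), -1.48 (SLC17A3), -1.93 (DHRS3), 2.30 (FBXL7), 2.06 (LYNX1), 1.99 (ITGB2) and 1.66 (AREG). Genes that moved in opposite directions had 3.57 (KRT7), 3.42 (DKK1), 3.36 (GJA1), 3.18 (LINC03061), -3.34 (FAT2), -3.15 (COL14A1), -2.75 (LINC02977) and -2.68 (ST3GAL5). C3, which rose in both lines, had -0.82, KDM5C had 1.02 and FOXM1 had 0.37.

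Members of the gene lists had 1.98 (HBEGF), 1.64 (ERBB3) and 0.56 (NRG1) in the EGF family, 0.81 (CDC25B), 0.67 (MYBL2), 0.67 (BIRC5) and 0.60 (CCNB1) in the cell cycle, and 1.00 (FDXR), 1.53 (CDKN1A), 1.04 (BTG2) and 1.10 (AEN) among p53 targets. Keratins had 0.89 (KRT80), 1.27 (KRT19) and 0.53 (KRT8), and kidney genes had -3.10 (PAX2), -1.16 (SALL1), -1.31 (DPP4) and -3.33 (ALPL). Matrix genes had -2.97 (COL1A1), 1.08 (COL8A1) and -1.83 (COL5A1). Immune genes had 0.54 (HLA-E), -0.55 (ERAP2), 1.69 (ICAM1), 2.62 (IL6) and 1.17 (CXCL8), and sterol genes -1.03 (STARD4), 0.46 (HMGCS1) and 0.38 (FDFT1).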

How the results depend on the processing

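Counts of called genes were 2140 (difference), 9154 (ACHN), 214 (HK-2), 86 (shared direction) and 49 (opposite directions), and below they are given in that order. RLE, total counts and the stricter filter kept all 5 within 1.5 times. DESeq2 gave 807, 281 and 177 for the last 3, and no filter 405, 166 and 99. All 24 libraries in 1 fit gave 3979, 4897, 3993, 841 and 560. Sample weights (limma voom, weight 0.0342 for HK-2 shKDM5C replicate 1) gave 6083, 3726, 1423 and 954 for all but ACHN, and the GC and length trend removed 3982, 1052, 431 and 256. Within-line effects from the 12-library fit gave 3346, 1744, 389 and 235 from ACHN on. Unadjusted p gave 5033, 2478, 909 and 607 for all but ACHN, and a log2 threshold of 1 gave 965, 1331 and 157 genes past it against 529, 541 and 81 at 1.5 in the first 3.

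Leaving out 1 library gave 1267 to 6289 differences, 8422 to 8874 calls in ACHN, 0 to 3718 in HK-2, 0 to 1445 shared and 0 to 975 opposite genes. The highest values came without HK-2 shKDM5C replicate 1. Differences fell to between 1267 and 1374 without any 1 of the 6 ACHN libraries or HK-2 shNC replicates 1 or 3 (1366 and 1350). HK-2 calls were 0, 1 and 0 without shNC replicates 1, 2 and 3 (1361, 1458 and 1287 genes at an unadjusted p under 0.05, edgeR) and 48 and 28 without shKDM5C replicates 2 and 3. The KDM5B difference of -0.12 turned to 0.20 with sample weights. With 1 library left out it ranged from -0.26 to 0.22, and that of KDM5A (-0.16) from -0.30 to 0.19, with the positive values without HK-2 shKDM5C replicate 1.

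Same-numbered libraries deviated with correlations of -0.217 to 0.0899, and 1 of 6 ACHN and 0 of 6 HK-2 libraries correlated best with their own number. The replicate block gave 957 differences and 0 calls in HK-2 (1770 at an unadjusted p under 0.05), 0 shared and 0 opposite genes, against 9132 in ACHN. The contrast in YY1-depleted cells called 8253 genes, and 8286 with RLE. Depth limits genes under about 1 CPM.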

Other observations

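RNU6-1, a gene of the U6 small nuclear RNA, was picked after its values were seen. It had 19, 19 and 21 counts in ACHN shNC and 82 to 105 in HK-2 shNC libraries, and 0 in each of the 6 shKDM5C libraries of both lines, replicate 1 of HK-2 included. In the YY1 series it had 5 to 12 counts in ACHN shYY1, 0 to 3 in ACHN Dsh, 0 to 3 in HK-2 shYY1 and 1 to 2 in HK-2 Dsh libraries. U6 genes are near-identical copies, so the reads may come from other loci. Hairpin vectors carry a U6 promoter, and whether reads from the vector enter these counts was not tested.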
